A study of Ichthyophis bannanicus with 29 samples.

Results

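Liver was compared with spleen in *Ichthyophis bannanicus*, a limbless amphibian of the caecilian order that lives in soil. The members were the 3 liver libraries and the 3 spleen libraries, chosen by their tissue labels, 6 of the 29 libraries in the series. The series measured messenger RNA by RNA sequencing in 10 tissues, and the other 23 libraries came from blood, heart, kidney, lung, ovary, skin, stomach and testis. Values were TPM (transcripts per 1000000), a length-corrected share of each library's RNA, for 53113 genes assembled from the reads. The labels give a tissue and a replicate number for each library and do not say whether replicates were separate animals, so the spread that p-values rest on is that between the libraries at hand and may be technical.

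The vertebrate liver makes most plasma proteins, including clotting factors and complement, makes bile, and processes nutrients, nitrogen waste and foreign compounds. The spleen filters blood, removes aged red cells and holds lymphocytes, and in amphibians it is a principal lymphoid organ. In many amphibians both organs contain pigmented macrophages. The table pairs no gene names with its assembly IDs, so genes are described by their level, their direction and the other tissues that hold them. At most 2 IDs per direction are printed, and the tissue labels were not checked against marker genes. An assembled gene may be a fragment of a gene or may join near-identical copies, so paralogs remain uncertain.

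One library of each tissue stood apart. Spleen replicate 1 had 18410 genes at 1 TPM or more, the fewest of the 29 libraries, against 30065 and 28438 in spleen replicates 2 and 3. The liver libraries had 29833, 27417 and 28330. The mean was 28527 ± 1220 genes in liver and 25638 ± 6312 in spleen (SD, n = 3 each), a difference of 2889 with p = 0.9 in a two-sided exact permutation test, where 0.1 is the smallest p that 3 against 3 can give. Without spleen replicate 1 the difference was -725 genes, with liver the lower tissue. The 10 most abundant genes of each library held 22.2% ± 2.49 of TPM in liver and 27.6% ± 8.29 in spleen (SD, n = 3 each), with p = 0.4 in the same exact permutation test. Liver replicate 2 held spleen genes, as described further on. Sequencing depth cannot be read from TPM, and no counting interval is given.

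Liver and spleen libraries were less alike in overall expression than libraries of the same tissue. Tested were the 33526 genes that reached 1 TPM in 2 or more of the 6 libraries, and across them Pearson r of log2(TPM + 1) between a liver and a spleen library was 0.569 to 0.619. Pairs of liver libraries had r of 0.833 to 0.874, and pairs of spleen libraries 0.795 to 0.903. These r run across genes, which are no independent replicates. The median SD of a gene on the log2 scale was 0.41 among liver libraries and 0.73 among spleen libraries. Without spleen replicate 1 the spleen value was 0.36, and without liver replicate 2 the liver value was 0.29. These 2 values rest on fewer libraries and are not to be set against the first ones.

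Of the 33526 tested genes, 2112 were higher and 692 were lower in liver than in spleen. These are 6.30% and 2.06% of the tested genes, or 8.36% in all. The call rule in limma was a Benjamini-Hochberg adjusted p under 0.05 together with a log2 difference, liver minus spleen, of at least 1 in size. The smallest called difference was 1.48 on the log2(TPM + 1) scale, a scale that understates the change of low genes. All 3 liver libraries lay above all 3 spleen libraries for 6765 tested genes (20.2%) and below them for 3120 (9.31%).

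The number of genes lower in liver depended on which libraries were used. Without spleen replicate 1 there were 2228 higher genes (6.72% of those tested) and 2118 lower ones (6.39%), and the higher share of the calls was 51.3% in place of 75.3%. Without liver replicate 2 there were 1633 higher (5.01%) and 339 lower genes (1.04%). Without both of these libraries there were 2314 higher (7.19%) and 1620 lower genes (5.03%). The lower genes numbered 326 without liver replicate 1, 268 without liver replicate 3, 411 without spleen replicate 2 and 321 without spleen replicate 3. The higher genes numbered 1343 without liver replicate 3 and 1324 without spleen replicate 3. No gene called in all 6 libraries was called in the opposite direction in any of these fits. That outcome was fixed, since liver and spleen libraries did not overlap for any called gene. Of the 692 lower genes, 262 remained called without liver replicate 3 and 624 without spleen replicate 1, the fewest and the most with 1 library left out.

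Scaling also moved the balance. Among 14865 genes at 1 TPM or more in all 6 libraries, the median log2 difference was 0.09 in TPM as deposited and -0.15 after rescaling each library by the median of ratios. In the rescaled fit 2708 genes (8.08%) were higher and 1517 (4.52%) lower, and the higher share of the calls was 64.1%. Of the genes called in TPM as deposited, it kept 2006 of 2112 higher genes and 629 of 692 lower genes.

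**Figure D1:**
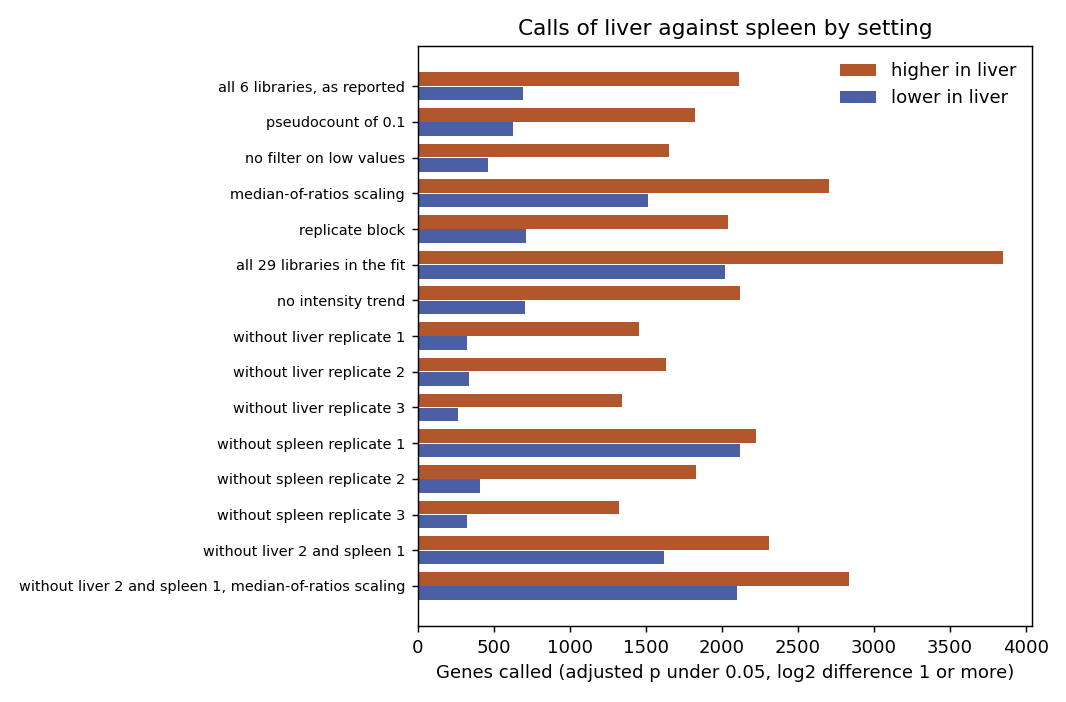
Number of genes called higher (upper bar of each pair) and lower (lower bar) in liver than in spleen, on the horizontal axis, for each setting named on the vertical axis. The lower genes number 692 with all 6 libraries and 2118 without spleen replicate 1, while the higher genes number 2112 and 2228.

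Leaving out spleen replicate 1 called 1494 further genes lower in liver. In spleen replicate 1 these genes stood at a median of 14.3% of their mean in spleen replicates 2 and 3, and 292 of them (19.5%) were listed at 0 there. For the 692 genes called with all 6 libraries, the median was 62.3%. Both sets were chosen in part by their values in spleen replicate 1, so this contrast was partly built in. Over all tested genes, spleen replicate 1 differed from the mean of spleen replicates 2 and 3 by a median of -0.96 on the log2(TPM + 1) scale. Of all tested genes, 22.8% were listed at 0 in spleen replicate 1, against 6.81% and 7.89% in spleen replicates 2 and 3. What part the fewer genes recorded in this library had in the calls was not tested further.

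Most called genes had log2 differences of 2 or more in size. Of the higher genes, 1365 (64.6%) had log2 differences of 2 to 4, 358 of 4 to 6, 132 of 6 to 8 and 84 of 8 or more. Of the lower genes, 500 (72.3%) had log2 differences of 2 to 4 in size, 65 of 4 to 6, 24 of 6 to 8 and 24 of 8 or more. The median log2 difference was 3.05 over the higher genes and -2.78 over the lower genes, against 0.23 over all tested genes. The call rule passes over small differences, so the sizes of called genes were partly built in. In 513 of the higher genes all 3 spleen libraries were listed at 0, and in 155 of the lower genes all 3 liver libraries were. Leaving these out, the medians were 2.91 and -2.68.

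**Figure D2:**
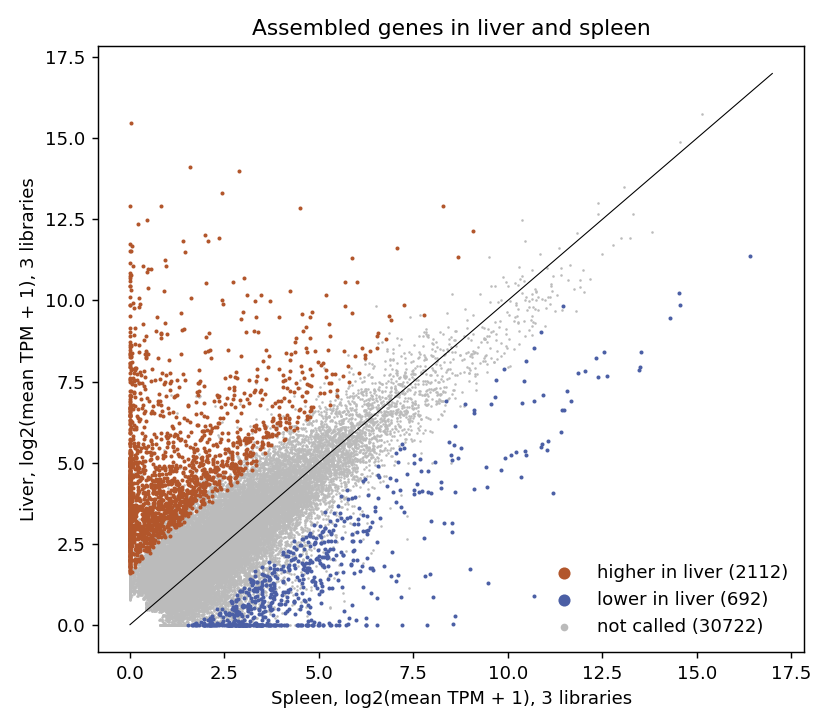
Each point is 1 tested gene, with log2(mean TPM + 1) in liver on the vertical axis and in spleen on the horizontal axis, coloured by its call, and the line marks equal means. The 2112 genes higher in liver lie along the left edge and above the line, and the 692 lower genes lie below it.

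The share of genes called was higher at higher levels, and the largest number of calls fell at 5 to 20 TPM. Of the 15295 genes whose higher tissue mean was under 5 TPM, 150 (0.981%) were higher and 58 (0.379%) lower in liver, and on the log2(TPM + 1) scale such genes can show only limited differences. At 5 to 20 TPM there were 981 higher genes (8.05%) and 309 lower ones (2.53%) of 12193. At 20 to 100 TPM the shares were 13.4% and 4.64%, and at 100 to 1000 TPM they were 25.7% and 6.11%. Of the 194 genes whose higher tissue mean was 1000 TPM or more, 56 (28.9%) were higher and 37 (19.1%) lower. The higher genes together took 28.3%, 37.7% and 37.6% of TPM in the liver libraries, against 0.669%, 1.02% and 0.861% in the spleen libraries. The lower genes took 0.71%, 3.13% and 0.563% in the liver libraries, where replicate 2 was the highest, against 22.1%, 23.2% and 45.7% in the spleen libraries. The tissues did not overlap for any called gene, so the direction of both contrasts was fixed by the choice.

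A gene that was not called was rarely shown to be alike in both tissues. Of the 30722 uncalled genes, 8286 nevertheless differed by at least 1 on the log2 scale. The 95% interval of the difference lay within -1 to 1 for 138 genes (0.412% of those tested).

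With all 6 libraries, genes present in one tissue and listed at 0 in the other were more numerous on the liver side. This lead was small without spleen replicate 1. Of the 33526 tested genes, 567 were at 1 TPM or more in all 3 liver libraries and listed at 0 in all 3 spleen libraries. The reverse held for 199 genes. Without liver replicate 2 the numbers were 817 and 290, without spleen replicate 1 they were 597 and 560, and without both they were 866 and 814. Of the 567 liver genes, 195 had a mean under 1 TPM in each of the other 8 tissues, as did 16 of the 199 spleen genes. These counts were 220 and 37 without liver replicate 2, 199 and 32 without spleen replicate 1, and 224 and 72 without both. Of all tested genes, 1.70% had a mean under 1 TPM in each of these 8 tissues. A gene listed at 0 was not recorded in that library, which does not show that the tissue lacks it.

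Among the genes higher in liver, TRINITY_DN24963_c0_g1 had the largest log2 difference and the smallest p. It was at 37565, 29390 and 68752 TPM in the liver libraries, against 0.031, 0 and 0 TPM in the spleen libraries. The tissues did not overlap, and this gene alone took several percent of liver RNA. In limma the difference on the log2(TPM + 1) scale was 15.36 ± 0.44 (SE, n = 3 each; Benjamini-Hochberg adjusted p = 2.50e-06), and it remained called in each of the 14 alternative fits. With spleen near 0, the size depended on the pseudocount, and it was 18.56 for this gene with a pseudocount of 0.1. Among the other tissues its highest library was lung replicate 2 at 469 TPM, and kidney libraries held 60.4, 127 and 1.75 TPM.

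TRINITY_DN17169_c0_g1, the gene with the next smallest p, behaved alike at a lower level. It was at 6471, 5499 and 11046 TPM in the liver libraries and was listed at 0 in all 3 spleen libraries. No fold is given against a tissue listed at 0. Its Benjamini-Hochberg adjusted p in limma was 2.50e-06 (n = 3 each). The highest library of another tissue was again lung replicate 2, at 40.7 TPM. Both genes shared their order over the liver libraries, with replicate 3 the highest and replicate 2 the lowest.

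Among the genes lower in liver, TRINITY_DN13662_c1_g1 had the largest log2 difference. It was at 0.226, 7959 and 0 TPM in the liver libraries, against 53729, 59759 and 148535 TPM in the spleen libraries. The tissues did not overlap, but liver replicate 2 stood far above the other liver libraries. In limma it differed by -11.84 ± 2.91 on the log2 scale (SE, n = 3 each; Benjamini-Hochberg adjusted p = 0.0385). Without liver replicate 2 it was -16.11, with adjusted p = 8.38e-05 in limma. The gene was not called after rescaling (adjusted p = 0.0602), with a pseudocount of 0.1 (0.0808) or without the filter on low values (0.115). Nor was it called without liver replicate 1 (0.128), liver replicate 3 (0.121), spleen replicate 1 (0.101), spleen replicate 2 (0.106) or spleen replicate 3 (0.135). It was also abundant in stomach, at 21152, 14978 and 35755 TPM, and lung libraries held 2608, 1847 and 1037 TPM.

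TRINITY_DN15338_c0_g1 had the smallest p among the genes lower in liver. It was at 1.65, 0.567 and 0.363 TPM in the liver libraries, against 972, 2364 and 1664 TPM in the spleen libraries. Here liver replicate 2 did not stand above the other liver libraries. Its difference in limma was -9.78 ± 0.49 (log2, SE, n = 3 each; Benjamini-Hochberg adjusted p = 7.65e-06), and the gene remained called in each of the 14 alternative fits. Outside the 2 tissues it was highest in skin, at 37.8, 41.7 and 43.4 TPM.

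**Figure D3:**
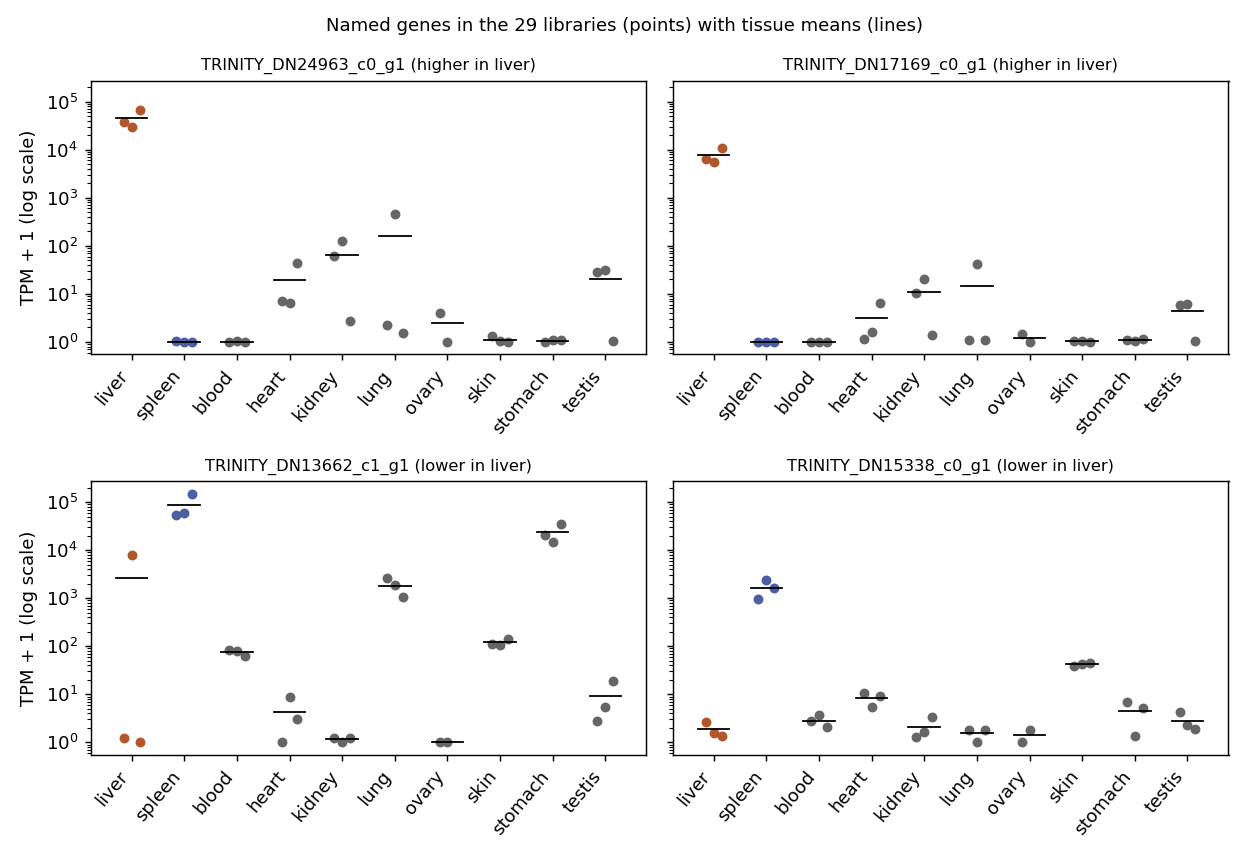
TPM + 1 on a log axis in each of the 29 libraries (points) for the 4 named genes, by tissue, with the tissue mean as a line. Liver replicate 2, at 7959 TPM, is the liver library nearest to the spleen libraries for TRINITY_DN13662_c1_g1, while for the other 3 genes the liver libraries lie together.

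The most abundant genes of each tissue were partly shared. By mean TPM, 6 of the 10 most abundant liver genes were called higher in liver, and 7 of the 10 most abundant spleen genes were called lower. Ranking genes by their level in a tissue favours genes that are higher there, and these counts stand beside 6.30% and 2.06% of all tested genes and 28.9% and 19.1% of those at 1000 TPM or more. Both tissues had 2 genes in common among these 10, and each was highest in blood. The leading shared gene averaged 54907 ± 7252 TPM in liver and 36369 ± 19361 TPM in spleen (SD, n = 3 each), a log2 difference of 0.72 with a 95% interval of -0.48 to 1.91 (limma, Benjamini-Hochberg adjusted p = 0.47). It was called in 0 of the 14 alternative fits. Among the 100 most abundant genes of each tissue, 38 were shared.

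The abundant liver genes did not all vary alike among the liver libraries. The fifth most abundant one was at 570, 42724 and 5154 TPM in the liver libraries and at most 11.9 TPM in spleen. The tenth was at 18.2, 22059 and 1068 TPM in the liver libraries and at most 1.37 TPM in spleen. For both, liver replicate 2 was the highest and liver replicate 1 the lowest, and both were called higher in liver (limma, Benjamini-Hochberg adjusted p = 0.00224 and 0.0287). The fifth remained called in each of the 14 alternative fits and the tenth in 5 of them. In limma the adjusted p of the tenth was 0.0527 without liver replicate 2, 0.0864 without liver replicate 3, 0.0857 without spleen replicate 1, 0.0856 without spleen replicate 2 and 0.113 without spleen replicate 3. Neither gene was abundant in spleen, so the high level in liver replicate 2 was not shared with the spleen libraries. Every liver library had genes that stood above the others: 837, 722 and 547 tested genes were at least 4-fold above the mean of the other liver libraries, on the log2(TPM + 1) scale, in liver replicates 1, 2 and 3.

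Liver replicate 2 held many spleen genes at a small fraction of their spleen level. To read this library apart from the choice of genes, 44 genes were taken that averaged 100 TPM or more in spleen and lay at least 100-fold above liver replicates 1 and 3 in every spleen library. In liver replicate 2 they stood at a median of 8.1% of their spleen mean, with an interquartile range of 5.56% to 11% and values of 0% to 25.4%. Their low level in liver replicates 1 and 3, with medians of 0.00214% and 0%, was fixed by the choice. Chosen against liver replicate 1 alone, in a reading added after seeing the data, the same 44 genes qualified, so this gives no second reading of liver replicate 2. In liver replicate 3, which took no part in that choice, they were at a median of 0%. Chosen against liver replicate 3 alone, 47 genes qualified, the same 44 among them. They were at a median of 7.75% in liver replicate 2 and 0.00311% in liver replicate 1. Summed, the 44 genes took 2.55% of TPM in liver replicate 2, against 16.6%, 18.0% and 41.5% in the spleen libraries. The ratio was not the same for each gene: 36 of the 44 were at 1% or more of their spleen mean in liver replicate 2, and 28 were between 4% and 16%.

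**Figure D4:**
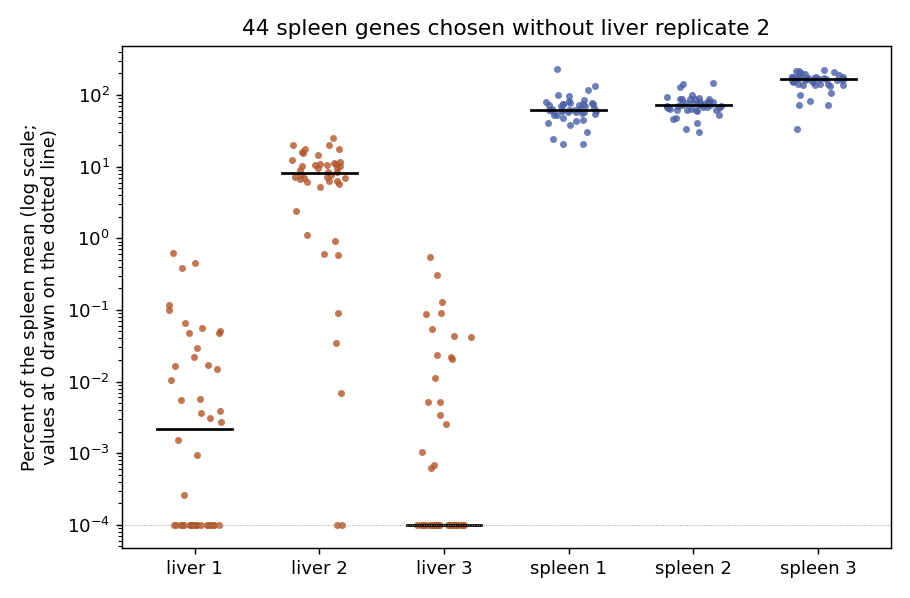
Level of 44 spleen genes in each liver and spleen library, as a percent of their spleen mean on a log axis, with 1 point per gene, the median as a line and values at 0 on the dotted line. The genes were chosen to be low in liver replicates 1 and 3, and liver replicate 2, which took no part in the choice, has a median of 8.1%.

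The spleen libraries held little of the liver genes. Liver genes chosen in the same way without the library that was read stood at medians of 0%, 0.00447% and 0.0263% of their liver mean in spleen replicates 1, 2 and 3, over 148, 149 and 171 genes. For liver replicates 1 and 3, where liver replicate 2 took part in the choice, 6 spleen genes qualified in each case, and they were at medians of 0.0086% and 0.0109%. The 44 spleen genes were at a median of 0.0705% to 0.104% in blood libraries and 0.128% to 0.178% in skin libraries. By sum, which a few abundant genes can set, they took 5.48%, 7.09% and 14.0% of TPM in skin libraries and 2.13%, 1.51% and 3.59% in stomach libraries, so skin held more of their RNA than liver replicate 2 did. Where the RNA of these genes in liver replicate 2 came from was not tested.

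Each library was also set against calls made without it. Of the genes called higher in liver from the other 5 libraries, liver replicate 1 lay above all spleen libraries for 1396 of 1455 (95.9%), liver replicate 2 for 1527 of 1633 (93.5%) and liver replicate 3 for 1287 of 1343 (95.8%). Over all tested genes the shares were 38.7%, 29.9% and 31.3%. Of the genes called lower in liver, spleen replicate 2 lay above all liver libraries for 389 of 411 (94.6%) and spleen replicate 3 for 314 of 321 (97.8%), against 41.6% and 26.0% of all genes tested. Spleen replicate 1 did so for 1291 of 2118 (61.0%), against 14.2% of all genes tested without it. Liver replicate 2 lay below all spleen libraries for 332 of 339 genes called lower (97.9%), against 20.1% of all genes tested. A gene at a small fraction of its spleen level also lies below, so this count does not measure the spleen genes it held. Its median for the 339 genes was 4.45% of their spleen mean, against 0.318% in the other liver libraries, which took part in the choice. In each reading the tissue compared against also chose the genes, so high shares were partly built in.

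The other 8 tissues took no part in the calls and show where else these genes were found. Liver had the highest mean of the 10 tissues for 1333 of the 2112 higher genes (63.1%), and spleen for 370 of the 692 lower genes (53.5%). Over all tested genes the shares were 7.8% for liver and 5.35% for spleen. Being highest in liver or spleen also rests on the values that chose the genes, so shares above these were partly built in. The shares were also read for genes called in other fits, with tissue means still taken over all libraries in TPM as deposited. For genes called without spleen replicate 1 they were 57.5% of the higher genes and 29.9% of the lower genes. Spleen replicate 1 still entered the spleen mean there. For genes called without liver replicate 2 the shares were 69.7% and 60.2%, and for those called after rescaling 51.2% and 36.0%. Liver libraries lay above all 26 others for 876 of the higher genes (41.5%), and spleen libraries above all 26 others for 181 of the lower genes (26.2%), against 2.95% and 0.984% of all tested genes. The 26 include the libraries of the tissue compared against, so these shares were partly built in as well. Of the higher genes 275 (13.0%) had a mean under 1 TPM in all 8 other tissues, as did 31 of the lower genes (4.48%) and 1.70% of all tested genes.

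Outside liver, the genes higher in liver were most often highest in kidney. Kidney had the highest mean of the other 8 tissues for 722 of the higher genes (34.2%) and 94 of the lower genes (13.6%), against 13.8% of all tested genes. Skin had it for 136 of the higher genes (6.44%) and 205 of the lower genes (29.6%), against 5.88% of all tested genes. Testis led for 17.9% of the higher genes, 13.7% of the lower genes and 23.2% of all tested genes. Without liver replicate 2 and spleen replicate 1 the kidney share of the higher genes was 33.3%, and the skin share of the lower genes was 16.9%. The skin share moved with the libraries and with the scaling: it was 41.3% without liver replicate 2, 14.9% without spleen replicate 1 and 17.7% after rescaling with all 6 libraries.

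**Figure D5:**
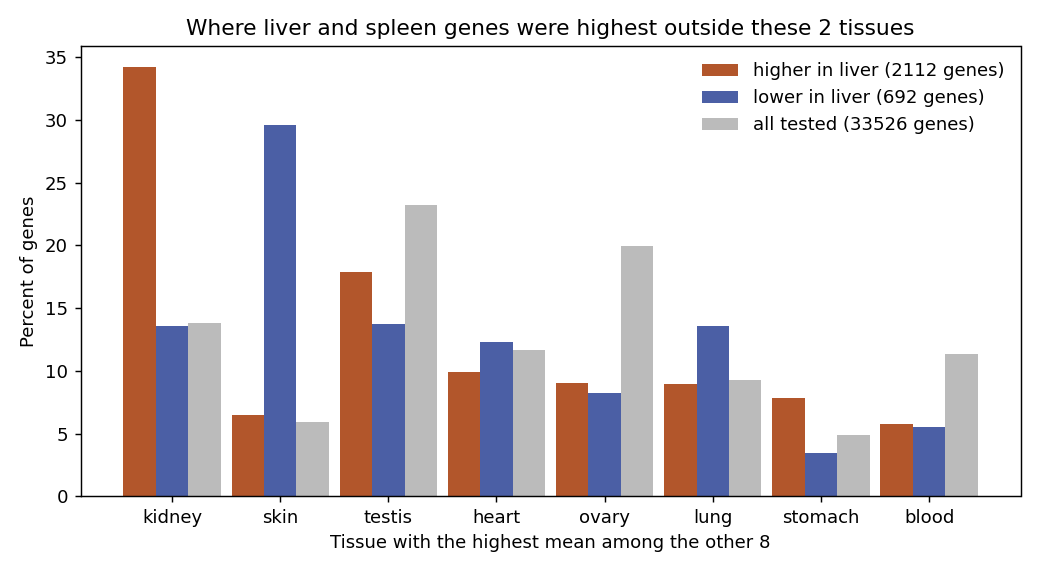
Percent of genes (vertical axis) for which each of the other 8 tissues had the highest mean, for genes higher in liver, genes lower in liver and all tested genes. Kidney leads for 34.2% of the genes higher in liver and skin for 29.6% of the genes lower in liver, against 13.8% and 5.88% of all tested genes.

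Each tissue other than liver and spleen, blood among them, held a smaller share of either list than of all tested genes. A mean of 1 TPM or more in blood was reached by 35.8% of the genes higher in liver and 49.3% of those lower in liver, against 73.4% of all tested genes. In kidney the shares were 78.2% and 68.1%, against 91.2%, and in skin 54.3% and 77.3%, against 83.2%. Without liver replicate 2 and spleen replicate 1 the blood shares were 37.8% and 45.2%. As marks of blood, 850 genes were taken that averaged 10 TPM or more there. Their blood libraries all lay above the libraries of the 7 tissues other than liver and spleen. They took 6.34%, 5.06% and 5.97% of TPM in the liver libraries, against 8.47%, 5.84% and 3.85% in the spleen libraries. Blood libraries held 34.0% to 35.3%, and the libraries of those 7 tissues a median of 4.65% and at most 13.7%. The liver and spleen sums lay below that highest value and do not by themselves measure blood content. Leaving out the most abundant of the 850 genes, the shares were 2.86%, 2.24% and 3.25% in liver, against 4.54%, 3.84% and 2.49% in spleen. Liver and spleen overlapped in both readings. Of the 784 blood genes that were tested, 9 (1.15%) were higher and 5 (0.638%) lower in liver, against 6.30% and 2.06% of all tested genes.

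Genes that marked other tissues in the same way differed by tissue, and their calls are read against 6.30% higher and 2.06% lower over all tested genes. Only genes that reached 1 TPM in 2 or more of the 6 libraries were tested. A marker gene low in spleen could enter only through liver, and the reverse, so these shares were partly set by the filter. Of 715 tested genes that marked kidney, 220 (30.8%) were higher in liver than in spleen and 15 (2.10%) lower, and together the 2013 kidney genes took 4.12%, 4.06% and 4.09% of TPM in liver, against 1.67%, 1.47% and 1.04% in spleen. Of 537 tested genes that marked skin, 40 (7.45%) were higher in liver, close to the share of all tested genes, and 78 (14.5%) lower. The skin genes took 3.65%, 4.45% and 3.59% of TPM in liver, against 17.1%, 12.9% and 19.4% in spleen. Leaving out the most abundant of them, which averaged 928 TPM in liver, 24291 TPM in spleen and 30.7 TPM in skin, the shares were 3.65%, 4.17% and 3.59% in liver, against 15.2%, 11.3% and 15.6% in spleen. Of 244 tested genes that marked stomach, 46 (18.9%) were higher in liver and 8 (3.28%) lower, with a median log2 difference of 0.58 against 0.23 over all tested genes. The stomach genes took 0.88%, 1.48% and 0.795% of TPM in liver, against 5.97%, 6.61% and 15.7% in spleen. The spleen sums rested on TRINITY_DN13662_c1_g1, and without it the stomach genes took 0.88%, 0.68% and 0.795% of TPM in liver, against 0.602%, 0.63% and 0.835% in spleen. Of 219 tested genes that marked lung, 8 (3.65%) were higher in liver and 23 (10.5%) lower. For the genes that marked heart, ovary and testis, 4.64%, 1.89% and 3.84% were higher in liver. The shares lower in liver were 3.89%, 0.598% and 3.11%. In bulk tissue, more cells of a type and more RNA per cell cannot be told apart.

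Assembled genes of 1 component, which share sequence and may be copies, splice forms or fragments of a gene, mostly went the same way. Of 3366 components with 2 or more tested genes, 81 held 2 or more called genes. In 60 of these all called genes were higher in liver, in 14 all were lower, and in 7 they went both ways. As 75.3% of all called genes were higher in liver, part of this agreement was built in. The clearest of the 7, chosen after its values were seen, held 3 called genes. One was at 5.49, 3.38 and 2.47 TPM in the liver libraries, against 88.0, 131 and 143 TPM in the spleen libraries, which is -4.69 ± 0.44 on the log2 scale (SE, n = 3 each; adjusted p = 0.000266 in limma). Another was at 20.7, 73.1 and 143 TPM in the liver libraries, against 0.589, 2.44 and 2.46 TPM in the spleen libraries, which is 4.53 ± 0.71 on the log2 scale (SE, n = 3 each; adjusted p = 0.00461 in limma). The remaining gene was also higher in liver, at 5.19, 17.7 and 35.2 TPM against 0.269, 0.693 and 0.482 TPM in spleen (limma, Benjamini-Hochberg adjusted p = 0.0119). It was called in 10 of the 14 alternative fits. Its adjusted p in limma was 0.0565 without liver replicate 2 and 0.0566 without spleen replicate 3. Without liver replicate 2 and spleen replicate 1 it was 0.0703, and 0.103 with rescaling as well. Of the other genes, the one lower in liver was called in all 14 fits and the one higher in liver in 13. The latter was not called in that last fit (limma, adjusted p = 0.0788). Reads shared by such genes may have been split between them, so their levels are uncertain.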

How the data were processed

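The series' 1 deposited file gives TPM, per the file headers, for 53113 assembled genes in 29 columns that each sum to 1000000. Per the labels' protocols, libraries were made from poly-A RNA captured on poly-T beads. IDs of the Trinity form point to that assembler. The sources used here name no version of it, no aligner and no quantifier. Every column matched a sample by name, and the labels gave tissue and replicate number.

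For the 6 liver and spleen libraries, genes that reached 1 TPM in 2 or more of them entered a limma (3.58.1, R 4.3.3) fit of log2(TPM + 1) with a mean per tissue and an intensity trend. Summaries and figures were made in Python 3.11.15 with scipy 1.17.1, pandas 2.3.3, matplotlib 3.10.9 and numpy 2.4.6. The fit was also run on simulated data with independent normal noise for each gene. Those data held no library like spleen replicate 1 or liver replicate 2, so that run cannot show how the fit handles them. The libraries compared and all lists were chosen with earlier results of these data known. Alternatives were a pseudocount of 0.1, no filter, median-of-ratios scaling, a replicate block, all 29 libraries in the fit, no intensity trend, no minimum log2 difference and each library left out. The combination of rescaling with leaving out liver replicate 2 and spleen replicate 1 was added after seeing the data.

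Named genes had to be called with and without liver replicate 2 and spleen replicate 1, with tissues that did not overlap. In each direction the gene with the largest log2 difference was named, and the gene with the smallest p or the next one where it was the same gene. The 75 symbols of marker and pathway lists matched 0 IDs, so no list was counted. No sequences or coordinates are given, since the table holds none. The main fit did not pair samples by replicate number.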

Additional observations from a re-analysis of the deposited data

How the results depend on the processing

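The counts of genes higher or lower in liver, 2112 and 692, changed as follows. With all 29 libraries in the fit they were 3851 and 2019. Lower genes numbered 460 without the filter on low values, where 43314 genes were tested (1.06%, against 2.06% in the main fit). They numbered 1517 (4.52%) after median-of-ratios scaling and 1620 (5.03%) without liver replicate 2 and spleen replicate 1. With both changes together there were 2100 (6.52%). Leaving out 1 library at a time gave 1324 to 2228 higher and 268 to 2118 lower genes, of 31568 to 33168 tested. The causes were not tested. A pseudocount of 0.1 gave 1824 and 629, no intensity trend 2120 and 706, and no minimum log2 difference 2112 and 692. The smallest difference among genes at a limma adjusted p under 0.05 was 1.48, so the minimum of 1 removed no gene. The difference in genes at 1 TPM or more ranged from -725 to 5103 with 1 library left out and was -170 without liver replicate 2 and spleen replicate 1. That in the share of the 10 most abundant genes ranged from -9.61 to -1.32 percentage points.

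With the replicate number as a block there were 2044 higher and 714 lower genes. Deviations of same-numbered liver and spleen libraries correlated at 0.035, 0.0048 and 0.049, and those of differently numbered ones at -0.104 to 0.057. Such values from different organs cannot show whether same-numbered libraries came from the same animal, which the labels do not say.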

Other observations

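Liver and spleen each had another tissue closer to them than each other. Across the 33526 genes tested between them, the mean Pearson r of log2(TPM + 1) was 0.678 between liver and kidney libraries and 0.597 between liver and spleen libraries. Between liver and heart it was 0.604. With blood, lung, ovary, skin, stomach and testis liver had a lower mean r than with spleen, from 0.514 for ovary to 0.583 for testis. Spleen had its highest mean r with skin, 0.70, followed by heart at 0.663 and lung at 0.65. Outside its own tissue each liver library was nearest to kidney replicate 2, and each spleen library to skin replicate 3. Genes are not independent replicates, and these r were not tested.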
